A study of Mus musculus with 4 samples.

Results

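Glutathione S-transferases (Gst), UDP-glucuronosyltransferases (Ugt) and cytosolic sulfotransferases (Sult) were described by family in mouse liver. They were chosen by gene symbol alone, as every Gst gene of a lettered class, every Ugt gene of families 1 to 3 and every numbered Sult gene with a probe on the array. This gave 56 of the 23462 genes that the probes could be assigned to, comprising 21 Gst, 14 Ugt and 21 Sult genes. The mouse RefSeq gene table held 66 such symbols, and the 10 with no assigned probe were Gsta1, Ugt1a1, Ugt1a2, Ugt1a5, Ugt1a7c, Ugt1a8, Ugt1a9, Ugt2a2 and the pseudogenes Gstm2-ps1 and Sult2a-ps2.

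The livers came from 24-week-old male mice on a C57BL/6 background, all of which carried floxed alleles of Lpiat1, listed on the array as Mboat7. Lpiat1 encodes an acyltransferase that places arachidonic acid in phosphatidylinositol, and the design asks what its loss in hepatocytes does on each diet. F/F mice had no Cre. LKO mice had the same alleles with Alb-Cre, in which the albumin promoter drives recombination in hepatocytes while the other liver cells keep the gene. Both genotypes received either CE2 chow or a high fat diet (HFD, HFD-60) for 18 weeks from 6 weeks of age. Each of the 4 conditions was measured on 1 array, all 4 of them on 1 slide and in 1 scan, and the number of mice behind an array was not given in the sources used here. There was therefore no replicate check of any difference and no test was made. The 4 comparisons (LKO against F/F on chow and on HFD, HFD against chow in F/F and in LKO) share arrays.

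Conjugation is the step of hepatic detoxification that makes a reactive or lipophilic compound water-soluble so that it can leave in bile or urine. Gst enzymes attach glutathione to electrophiles, Ugt enzymes transfer glucuronic acid from UDP-glucuronic acid in the endoplasmic reticulum, and Sult enzymes transfer sulfate from the donor PAPS in the cytosol. The substrates include drugs as well as bilirubin, bile acids, steroids, thyroid hormone and lipid peroxidation products.

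Values below are the processed signal of the gene's brightest probe, an intensity with no unit. A difference is a log2 difference after each array's 75th percentile of signal (222 for F/F and 213 for LKO on chow, 263 and 296 on HFD) was subtracted, so that signals are printed unscaled and differences are scaled. Where 4 signals stand in a row, they are those of the chow arrays (F/F, then LKO) followed by those of the HFD arrays (F/F, then LKO). A probe binds its own target with its own strength, so levels are compared between arrays and not between genes. The extraction software gave most member spots an error of 10% of signal, which makes the error of a difference 0.20 on the log2 scale. Probes printed more than once on an array gave a technical SD of 0.10 for a difference. A difference was called at 2-fold or more, and "rose" and "fell" are used for such differences alone.

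Liver identity and other cells were checked with marker lists. All 10 hepatocyte markers were well above background on all 4 arrays, with a summed signal of 944572 to 1013960. Their median difference was 0.02 for LKO against F/F on chow, -0.25 on HFD, -0.27 for HFD against chow in F/F and -0.55 in LKO, beside 0.00, -0.03, -0.02 and -0.07 over all genes. The summed signal of 10 macrophage markers was lowest on LKO chow (23453) and highest on LKO HFD (59395), and 9 of 10 lay above 0 between genotypes on HFD (median 0.76). Exocrine pancreas markers summed on chow to 5193 in F/F and 2956 in LKO, and on HFD to 3240 and 13524, with 8 of 8 above 0 between genotypes on HFD. Red blood cell markers summed to 52420 on F/F HFD and to 22460 to 29926 on the other arrays, and 4 of 4 lay below 0 between genotypes on HFD (median -0.95). Stellate cell markers lay above 0 in 8 of 8 cases in each comparison, with medians of 0.20, 0.33, 0.46 and 0.63 and a summed signal of 15389 to 31380. Endothelial markers summed to 9139 to 14669 and cholangiocyte markers to 1007 to 4622, both highest on LKO HFD. The part of these cells in the results below was not tested, and in a bulk sample fewer cells of a type and less RNA per cell cannot be told apart. The F/F HFD array stood apart in 2 clock genes, with Arntl at 31.0 against 102 to 178 on the other arrays and Dbp at 14397 against 6034 to 6921. Mboat7 itself gave 1102, 861, 1181 and 1100 in the order stated, differences of -0.30 and -0.27 between the genotypes on chow and on HFD. The place of its probe relative to the deleted part was not known, so this signal does not check the genotype labels.

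Of the 56 members, 43 passed the background flag on all 4 arrays (well above background) and 13 on none, with signals of 1.62 to 9.42. The measured 43 held 19 of 21 Gst, 14 of 14 Ugt and 10 of 21 Sult genes. Between genotypes on chow, 1 member (Ugt1a6a) was higher in LKO by 2-fold or more and 0 were lower, beside 1.11% and 1.03% of all genes. On HFD, 1 member (Ugt1a10) was higher in LKO and 4 were lower (Sult1b1, Sult2a7, Sult2a8 and Sult5a1), beside 2.36% and 1.91% of all genes. HFD against chow in F/F gave 1 higher member (Sult1c2) and 2 lower (Gstp1 and Ugt2b1), beside 5.21% and 2.94%. In LKO, HFD against chow gave 0 higher and 7 lower members (Gstt3, Ugt2a3, Ugt2b1, Sult1b1, Sult2a7, Sult2a8 and Sult5a1), beside 8.12% and 4.07%.

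**Figure D1:**
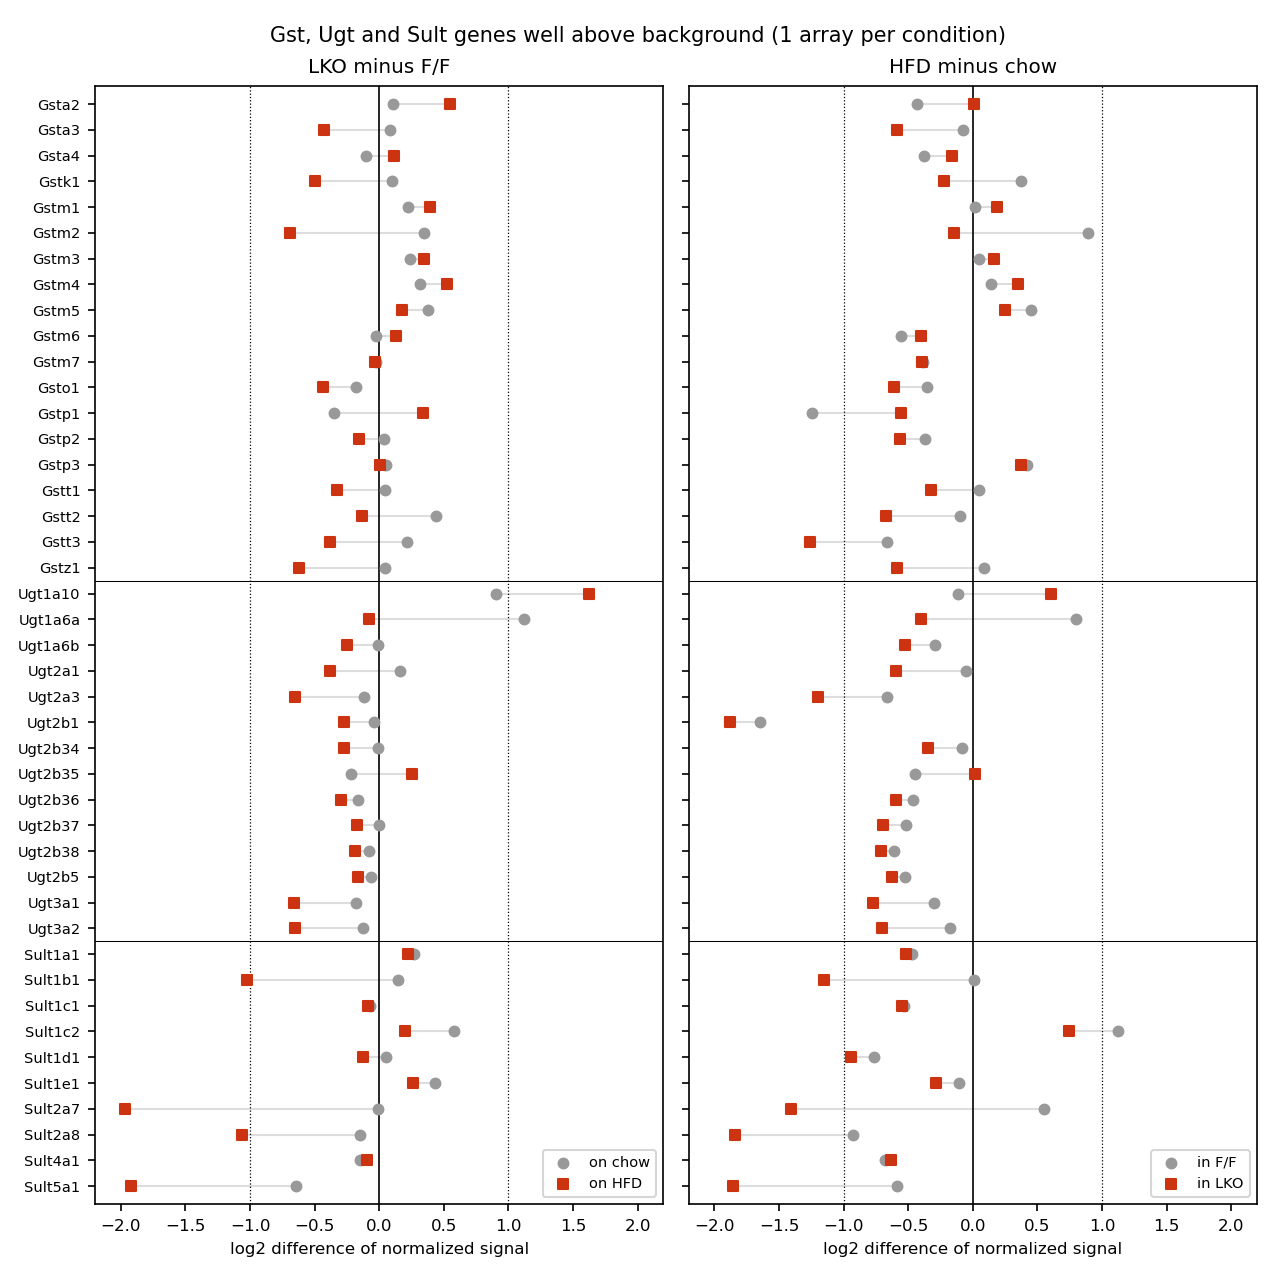
Log2 difference of normalized signal (horizontal axis) for each of the 43 members well above background (vertical axis, Gst at the top, then Ugt and Sult), for LKO minus F/F on the left (grey circles on chow, red squares on HFD) and HFD minus chow on the right (grey circles F/F, red squares LKO). Dotted lines mark 2-fold; most Ugt and Sult symbols lie left of 0 in the right panel with this scaling, and Ugt1a10 lies farthest right in the left panel, at 1.62 on HFD.

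In all, 11 members reached 2-fold in at least 1 comparison and 32 in none. Ugt2b1 alone did so in both diet comparisons. With the 75th percentile scaling, 27 of the 43 had differences below 0 in both diet comparisons and 6 had differences above 0 in both, beside 44.3% and 32.3% of all genes well above background on the 4 arrays. The diet difference was lower in LKO than in F/F for 33 of the 43, beside 56.3% of those genes. These counts rest on the same 4 arrays and on 1 LKO HFD array in particular. The median of the 43 members was 0.04 and -0.17 for the genotype on chow and on HFD, and -0.30 and -0.55 for the diet in F/F and in LKO, beside 0.02, -0.25, -0.27 and -0.55 for the hepatocyte markers. When each array was centred on those 10 markers instead, a setting chosen after seeing the data, the members' medians were 0.01, 0.09, -0.03 and -0.00, and the medians of all genes moved to -0.02, 0.22, 0.25 and 0.48. With that centring 16 of the 43 lay below 0 in both diet comparisons and 13 above 0 in both, beside 8.54% and 71.2% of all genes, and the diet difference was lower in LKO for 17, beside 22.6%.

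The size of these differences varied by family. For HFD against chow in F/F, the medians were -0.08 for Gst, -0.37 for Ugt and -0.50 for Sult, and 10 of 19, 13 of 14 and 7 of 10 members lay below 0, beside 52.2% of all genes. In LKO the medians were -0.32, -0.61 and -0.79, with 13 of 19, 12 of 14 and 9 of 10 below 0, beside 56.5% of all genes. Centred on the hepatocyte markers, the Gst medians were 0.19 and 0.23, whereas those of Ugt (-0.10 and -0.06) and Sult (-0.23 and -0.24) stayed below 0. The Gst median in F/F also lay above 0 after quantile normalization (0.21), in the deposited value table (0.06) and with the dimmest probe (0.03). Between genotypes on HFD the medians were -0.04 for Gst, -0.26 for Ugt and -0.11 for Sult, and 0.22, -0.01 and 0.14 when centred on the hepatocyte markers.

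**Figure D2:**
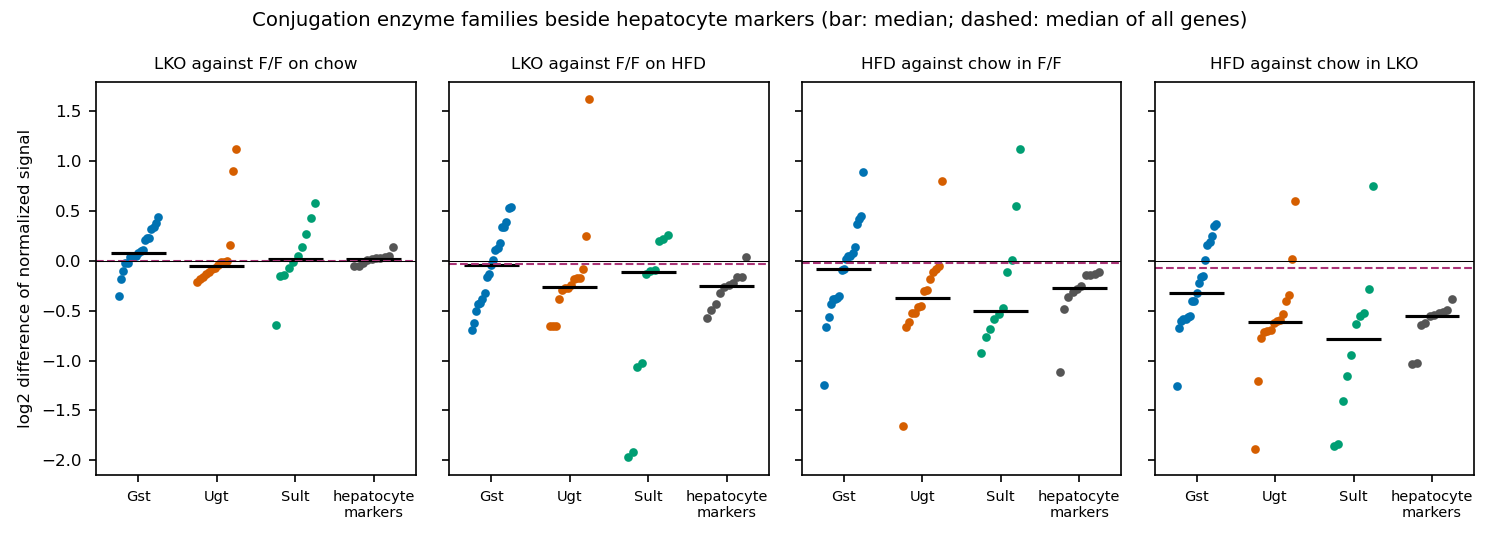
Log2 difference of normalized signal (vertical axis) of each measured Gst, Ugt and Sult gene and of the 10 hepatocyte markers in the 4 comparisons; black bars are medians and the dashed line is the median of all genes. In the LKO diet panel the medians of Ugt (-0.61) and Sult (-0.79) lie as low as or lower than that of the hepatocyte markers (-0.55); centred on those markers the Ugt and Sult medians are -0.06 and -0.24 and the Gst median changes sign, from -0.32 to 0.23.

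Among the Gst genes, Gstp1 fell on HFD in F/F and Gstt3 fell on HFD in LKO. Gstp1, a pi class enzyme that is higher in male than in female mouse liver, gave 21988 in F/F and 16593 in LKO on chow, against 11002 and 15655 on HFD. It fell by 1.25 on the log2 scale in F/F (2.37-fold), and its difference in LKO was -0.55. The F/F HFD array was thus the low one and the F/F chow array the high one, while both LKO arrays lay between. Its neighbour Gstp2 gave 91035, 89796, 83719 and 84224, with diet differences of -0.37 in F/F and -0.56 in LKO. Gstp1 and Gstp2 are near-identical copies and the files hold no probe sequences, so how far a probe separates them could not be checked. Gstt3, a theta class enzyme, gave 5853, 6521, 4379 and 3780, and fell by 1.26 on HFD in LKO (2.39-fold) beside -0.67 in F/F. Both HFD arrays were lower than both chow arrays. Gstt1, the theta enzyme that acts on small halogenated compounds, gave 29034, 28777, 35617 and 31936 with diet differences of 0.05 and -0.32, and Gstt2 gave 2361, 3088, 2623 and 2692 with -0.10 and -0.67. Centred on the hepatocyte markers, the Gstp1 value in F/F was -0.98 and the Gstt3 value in LKO -0.71, both short of 2-fold.

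The mu class (Gstm) had medians above 0 in all 4 comparisons and under every scaling and probe setting that was tried. All 7 genes were measured, and with the 75th percentile scaling 0 of them reached 2-fold. Gstm1 gave 44813, 50400, 53930 and 79606. Its difference between genotypes was 0.23 on chow and 0.39 on HFD. Gstm3 gave 59570, 67448, 73270 and 104532, with genotype differences of 0.24 and 0.34. Both were highest on LKO HFD, also after scaling. Gstm2 had another order, at 5746, 7019, 12646 and 8784, highest on F/F HFD with a diet difference of 0.89 in F/F and -0.15 in LKO. Its value in F/F passed 2-fold after quantile normalization (1.05), in the deposited value table (1.03) and when centred on the hepatocyte markers (1.16). The median over the 7 Gstm genes was 0.24 and 0.18 between genotypes on chow and on HFD, and 0.05 and 0.16 for the diet in F/F and in LKO. Gstm6 was uncertain, since its brightest probe gave a diet difference of -0.56 in F/F and another probe gave 0.11.

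The alpha class members conjugate lipid peroxidation products and other electrophiles. Gsta2 gave 6979, 7226, 6150 and 10081, with a genotype difference of 0.55 on HFD. Gsta3, the enzyme that protects mice against aflatoxin, gave 113879, 115975, 128077 and 107138, and its genotype difference on HFD was -0.43, or -0.35 by another probe. Gsta4, which acts on 4-hydroxynonenal, gave 860, 771, 785 and 955, and all its differences lay between -0.38 and 0.11. These 3 genes thus did not share a direction on HFD. Gstz1, the maleylacetoacetate isomerase of tyrosine breakdown, gave 35643, 35417, 44862 and 32713, with a genotype difference of -0.62 on HFD and -0.51 by another probe. Gstk1, the mitochondrial and peroxisomal kappa class enzyme, gave 11332, 11652, 17436 and 13871, with -0.50 between genotypes on HFD. Gsto1 of the omega class gave 10118, 8599, 9400 and 7824, and all 4 of its differences were below 0, from -0.61 to -0.18. Gsto2 and Gstt4 were not well above background on any array. The 7 measured members not given one by one (Gstm4, Gstm5, Gstm7, Gstp3, Ugt2a1, Sult1c1 and Sult4a1) were under 2-fold in all comparisons with this scaling, with differences of -0.68 (Sult4a1, HFD against chow in F/F) to 0.53 (Gstm4, LKO against F/F on HFD).

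Ugt1a10 was the member that differed most upwards between the genotypes. Its signal on chow was 180 in F/F and 323 in LKO, and on HFD 198 and 682. It rose 3.08-fold in LKO over F/F on HFD (1.62 on the log2 scale), and the genotype difference on chow was 0.90, under the 2-fold call. Both LKO arrays were higher than both F/F arrays, and HFD against chow was -0.11 in F/F and 0.61 in LKO, or 1.16 in LKO when centred on the hepatocyte markers. The call held in every scaling and background setting that was tried. Its values ran from 1.38 after normexp background correction to 1.87 when centred on the hepatocyte markers, and it fell short at the 4-fold threshold. Ugt1a10 had 1 probe, so the probe settings could not change the call. The Ugt1a enzymes have alternative first exons spliced to a shared set of exons. In the RefSeq order Ugt1a10 opens a row of 9 Ugt1a genes, of which 3 had a probe.

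Ugt1a6a, which conjugates planar phenols, rose 2.17-fold in LKO on chow (1.12), but its signals were only 11.4, 23.9, 23.6 and 25.1. The F/F chow array was the single low one, its spot had a software error of 17.2%, and after normexp background correction the difference was 0.29. Ugt1a6b, the third Ugt1a gene with a probe, gave 57837, 55360, 56134 and 53183, and its 4 differences lay between -0.53 and -0.01. Probes in the shared exons of Ugt1a genes would read several of them together, and this could not be checked without probe sequences.

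The Ugt2 genes, which act on steroids, bile acids and drugs, lie side by side in a row that also holds Sult1b1, Sult1d1 and Sult1e1, and of the 9 measured members Ugt2b1 and Ugt2a3 fell on HFD. Ugt2b1 gave 5732 in F/F and 5369 in LKO on chow, but 2165 and 2018 on HFD. It fell by 1.65 on HFD in F/F (3.14-fold) and by 1.88 in LKO (3.69-fold), and the genotype differences were -0.04 on chow and -0.27 on HFD. Both HFD arrays were under both chow arrays. At the 2-fold threshold these calls held under all the scaling and background settings. Ugt2b1 had 1 probe, so the probe settings could not change them. Ugt2a3 gave 9963, 8855, 7465 and 5336. It fell by 1.20 on HFD in LKO (2.30-fold) beside -0.66 in F/F, and centred on the hepatocyte markers its value in LKO was -0.65, short of 2-fold. Its 4 signals as printed run from high to low, and the step of -0.11 between the genotypes on chow was within the software error.

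The other Ugt2b genes were under 2-fold, and the median diet difference of the 7 Ugt2b genes was -0.52 in F/F and -0.63 in LKO, or -0.25 and -0.07 when centred on the hepatocyte markers. Ugt2b5 gave 28636, 26305, 23605 and 23629, Ugt2b36 gave 19584, 16837, 16880 and 15467, and Ugt2b37 gave 10912, 10479, 9031 and 8984. Ugt2b38 gave 46233, 42084, 36015 and 35624. The diet differences of these 4 genes ran from -0.61 to -0.46 in F/F and from -0.71 to -0.59 in LKO. Ugt2b34 gave 13064, 12492, 14652 and 13642, higher on both HFD arrays before scaling, and its scaled diet differences were -0.08 and -0.34. Ugt2b35 gave 225, 186, 196 and 261 and was the Ugt2b gene with a value above 0 between genotypes on HFD, at 0.25. Genotype differences on chow lay between -0.22 and -0.00 for all 7 Ugt2b genes. These genes are close in sequence, and signal that a probe takes from several of them cannot be told apart here.

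The Ugt3a enzymes use other UDP sugars than UDP-glucuronic acid. Ugt3a1 gave 7953, 6748, 7676 and 5470, and Ugt3a2, its neighbour, gave 10772, 9490, 11291 and 8090. Their genotype differences on HFD were -0.66 and -0.65, and another Ugt3a2 probe gave -0.65. LKO HFD was the lowest array for both, and neither reached 2-fold.

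**Figure D3:**
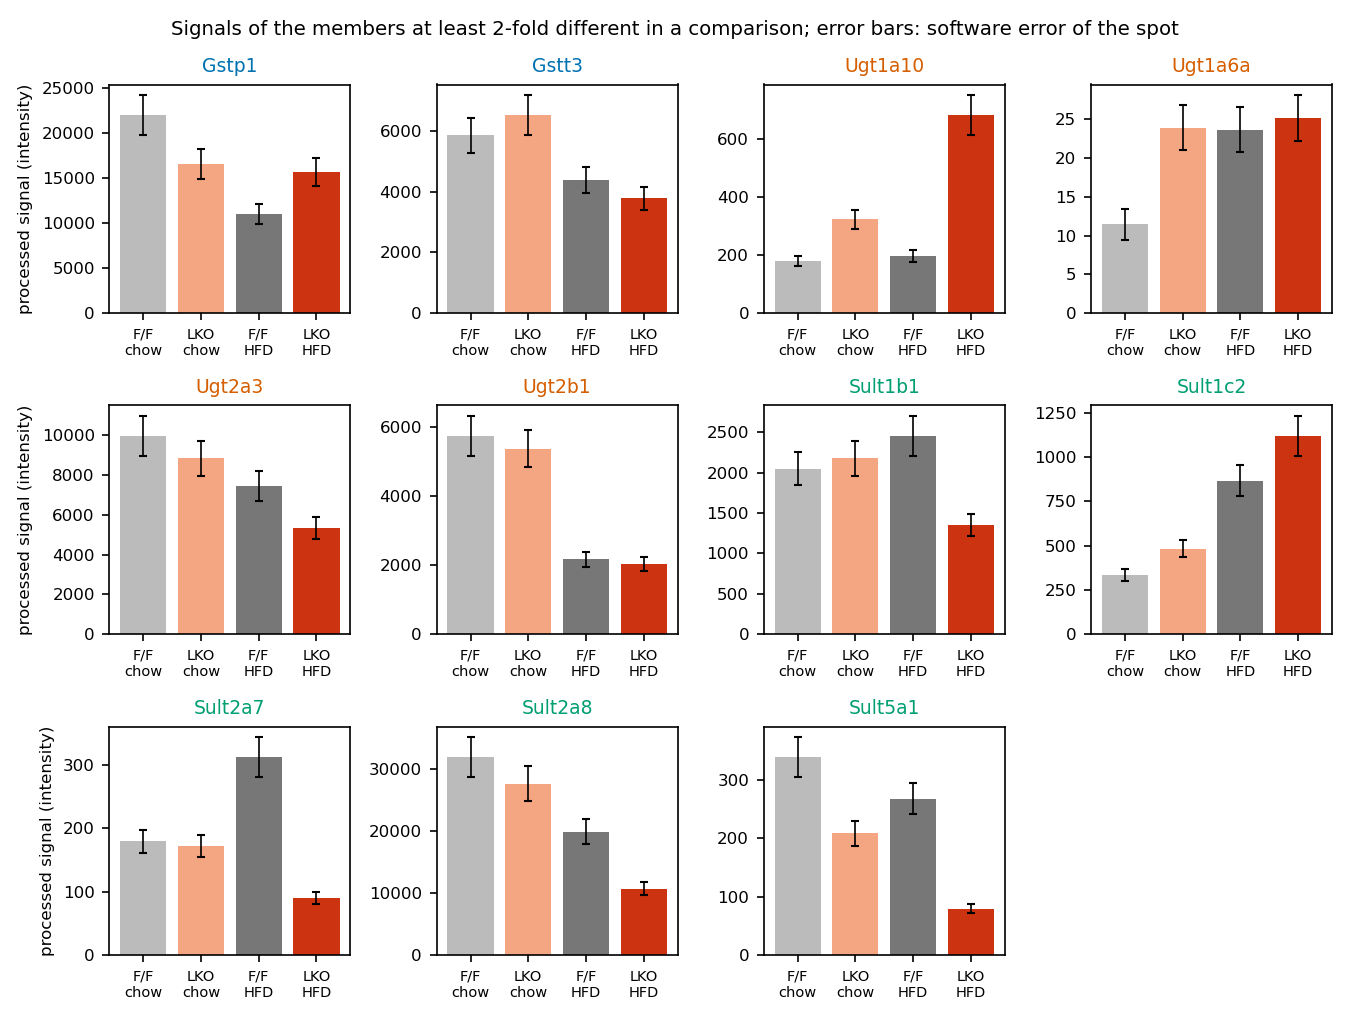
Processed signal (vertical axis, unscaled intensity) on the 4 arrays for the 11 members at least 2-fold different in a comparison; error bars are the extraction software's error of the spot. Ugt1a10 is highest on LKO HFD (682), Ugt2b1 is low on both HFD arrays (2165 and 2018), and Sult1b1, Sult2a7, Sult2a8 and Sult5a1 are lowest on LKO HFD.

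The sulfotransferases held 4 of the 7 members that fell on HFD in LKO and all 4 that were lower in LKO than in F/F on HFD. Sult2a8, which sulfates bile acids in mouse liver, gave 31828 in F/F and 27586 in LKO on chow, and 19854 and 10689 on HFD. It fell by 1.84 on HFD in LKO (3.58-fold) and by 1.06 between genotypes on HFD (2.09-fold), with -0.93 for the diet in F/F and -0.15 between genotypes on chow. Signals were thus lower on each HFD array than on each chow array and lowest on LKO HFD. Its neighbour Sult2a7 gave 179, 171, 312 and 89.5, highest on F/F HFD and lowest on LKO HFD. It fell by 1.97 between genotypes on HFD (3.91-fold) and by 1.41 on HFD in LKO (2.65-fold), while the diet difference in F/F was 0.55. After normexp background correction the 2 falls were smaller, at -1.40 and -1.05.

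Sult5a1, whose substrate is not settled, gave 338, 208, 267 and 79.4. It fell by 1.92 between genotypes on HFD (3.78-fold) and by 1.86 on HFD in LKO (3.63-fold). The genotype difference on chow was -0.65 and the diet difference in F/F -0.59, so that the LKO HFD array was the single array far below the rest. Another probe of the gene gave -1.31 and -1.40 for the differences that reached 2-fold, and normexp background correction gave -1.40 and -1.34. Sult1b1, which sulfates phenols and thyroid hormone, gave 2051, 2178, 2452 and 1356, and fell by 1.02 between genotypes on HFD (2.03-fold) and by 1.15 on HFD in LKO (2.23-fold). Its other 2 differences were 0.14 and 0.01, and another probe gave -1.06 and -1.10 for the differences that reached 2-fold. Only the LKO HFD array was low. Centred on the hepatocyte markers the Sult1b1 values were -0.77 and -0.60, the Sult2a7 diet value in LKO was -0.86 and the Sult2a8 genotype value on HFD was -0.81, each short of 2-fold. Sult1b1 also missed the call between genotypes on HFD after normexp background correction (-0.94) and quantile normalization (-0.99) and with the percentile taken only over probes that passed the background flag on every array (-0.98), and its diet value in LKO after normexp background correction (-0.97).

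Sult1c2 was the member that rose on HFD in F/F. It gave 335 in F/F and 480 in LKO on chow and 866 and 1118 on HFD, a 2.18-fold rise in F/F (1.12) beside 0.75 in LKO, or 1.30 in LKO when centred on the hepatocyte markers. Both HFD arrays exceeded both chow arrays. Sult1d1, which sulfates catecholamines, went the other way with 5796, 5773, 4044 and 4158, and its diet differences were -0.77 in F/F and -0.94 in LKO. Another Sult1d1 probe gave -1.06 in LKO. Sult1a1, the phenol sulfotransferase, gave 22022, 25519, 18844 and 24704, with diet differences of -0.47 and -0.52 and genotype differences of 0.27 and 0.22. Sult1e1, the estrogen sulfotransferase, gave 98.8, 128, 109 and 146, higher in LKO than in F/F by 0.43 on chow and 0.26 on HFD.

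The remaining Sult2 genes, the Sult3 genes and the Sult6b genes were not well above background in these male livers. In the RefSeq order, 8 Sult2a genes lie in a row, and Sult2a7 and Sult2a8 at its end were the pair well above background. Sult2a1, Sult2a2, Sult2a3, Sult2a4, Sult2a5 and Sult2a6 gave signals of 1.62 to 4.42 on the 4 arrays. Sult2b1, the cholesterol sulfotransferase, gave 1.75 to 7.50, and Sult3a1 and Sult3a2 gave 1.94 to 3.72, so no fold is given. Sult6b1 and Sult6b2 gave 1.90 to 2.64. Sult2a1, Sult2a2 and Sult3a1 are known to be expressed mainly in female mouse liver.

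**Figure D4:**
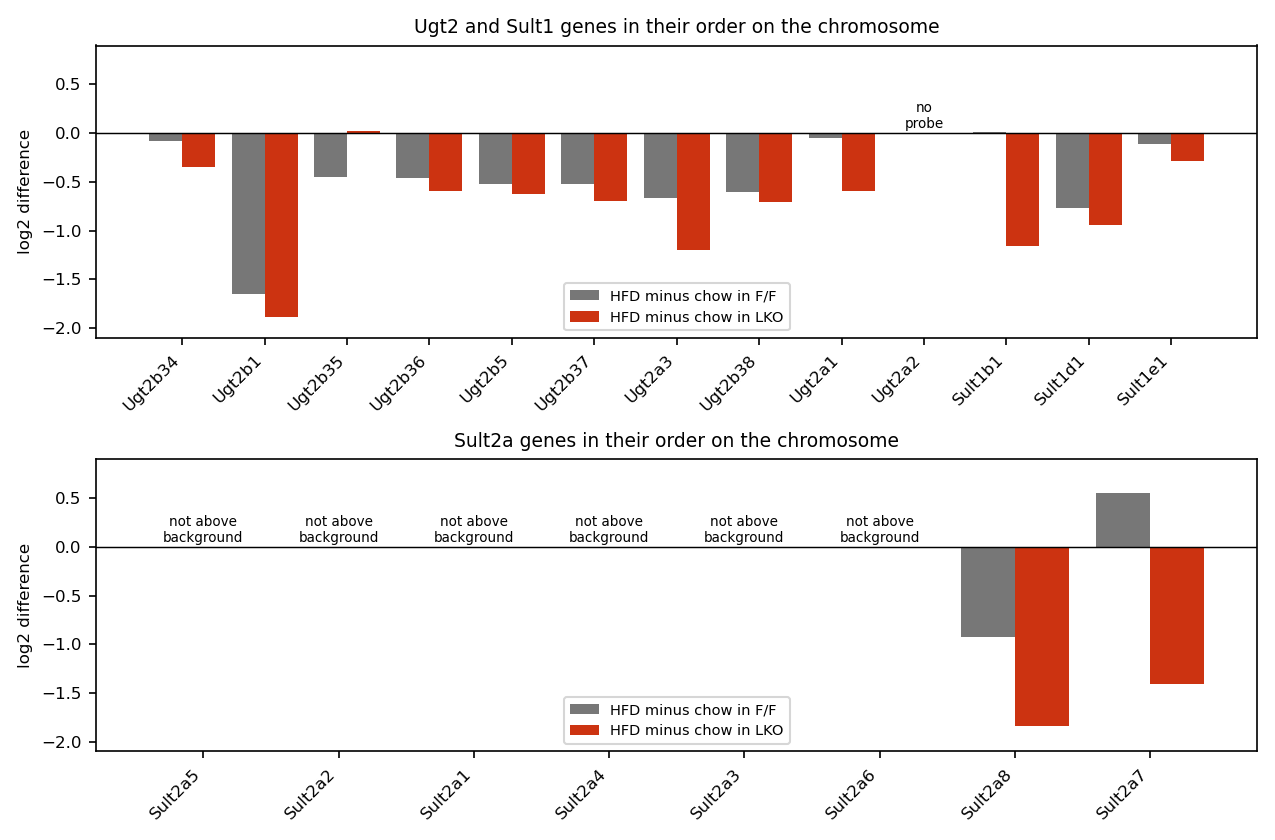
Log2 difference for HFD minus chow (vertical axis; grey F/F, red LKO) of the Ugt2 and Sult1 genes of 1 row and of the Sult2a genes of another, in their order on the chromosome (horizontal axis). Ugt2b1 has the lowest bars of the upper row (-1.65 and -1.88), and the lower row has bars for Sult2a8 and Sult2a7 alone.

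The RefSeq promoter windows (GRCm38.p6, 250 bases before to 50 after each start, 32851 windows over all genes) were searched on both strands for 3 motifs known from the control of conjugation genes, and few member windows held one. Member windows here also include those of genes with a matching symbol but no probe. The antioxidant response element core TGACNNNGC was in 12.4% of all windows and in 3 of 67 member windows (Gsta3, Gstm5 and Gstm7). The xenobiotic response element core TTGCGTG was in 1.16% of all windows and in 1 member window (Sult1d1), and the STAT5 site TTCNNNGAA in 8.3% and in 4. Among these 4 was the window of Gsta1, which had no probe. No 2 of the motifs overlapped in a member window, and windows of this length do not reach distal sites. The bases before the start are shown for Gsta3, the alpha class member with the antioxidant response element core, and for Sult1d1, the member with the xenobiotic response element core, whose values are given above. The match is in capitals, each sequence reads 5′ to 3′ on the gene's own strand, and a match describes the letters and not a bound site. Gsta3 is at chr1:21240335-21240584 on the + strand, and its match begins 121 bases before the start. Sult1d1 is at chr5:87569007-87569256 on the - strand, and its match, on the opposite strand, begins 47 bases before the start.
Gsta3: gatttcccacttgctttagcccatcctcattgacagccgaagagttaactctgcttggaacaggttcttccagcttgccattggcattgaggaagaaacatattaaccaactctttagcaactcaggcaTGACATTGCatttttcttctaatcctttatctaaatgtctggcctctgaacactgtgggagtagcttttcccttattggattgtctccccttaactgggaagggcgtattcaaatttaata
Sult1d1: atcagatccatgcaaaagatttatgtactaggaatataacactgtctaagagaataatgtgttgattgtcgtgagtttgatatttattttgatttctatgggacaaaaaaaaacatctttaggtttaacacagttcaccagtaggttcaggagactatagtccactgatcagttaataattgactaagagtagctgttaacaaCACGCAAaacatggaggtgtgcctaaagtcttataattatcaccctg

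A second probe was available for 12 of the 43 measured members. Over 52 values the gap between probes of a gene had a median size of 0.11 on the log2 scale and reached 0.67 for Gstm6. For Sult1b1 and Sult5a1, both probes reached 2-fold in the same 2 comparisons.

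**Figure D5:**
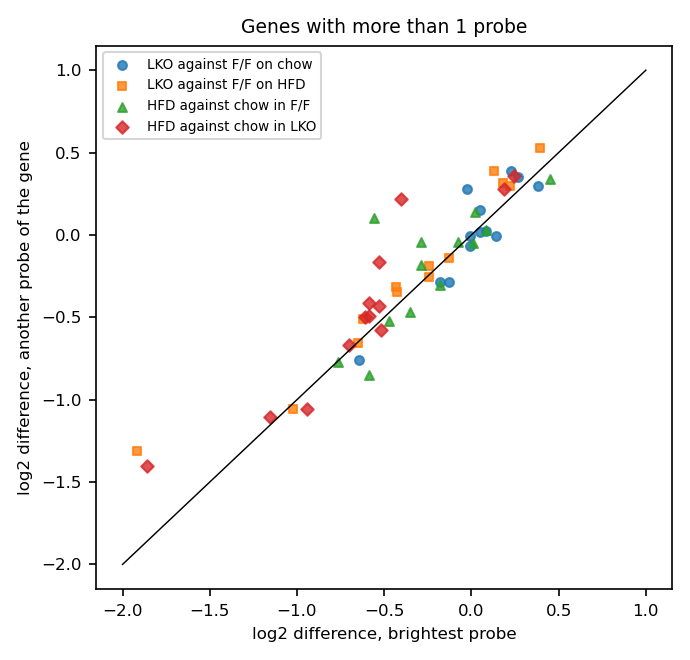
Log2 difference by the brightest probe (horizontal axis) against that by another probe of the same gene (vertical axis) for the 12 members with more than 1 probe, in the 4 comparisons; the line marks equal values. Most points lie near the line, with a median gap of 0.11, and the Gstm6 and Sult5a1 points lie farthest from it.

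The genes listed for the sugar and sulfate donors, which include some that handle glucuronides (Gusb) or sulfate (Arsa) instead, did not reach 2-fold. For UDP-glucuronic acid supply (7 measured) and for PAPS supply and sulfate handling (10 measured), 0 genes reached 2-fold in any of the 4 comparisons. Over all genes the share was 1.03% to 8.12% in each direction, so lists this short could hold 0 without differing from it. The PAPS list had a median of -0.33 between genotypes on HFD with 8 of 10 below 0, beside -0.03 and 54.1% over all genes. The hepatocyte markers had a median of -0.25 there, with 9 of 10 below 0. Papss2, the liver PAPS synthase, gave 8947, 8768, 7681 and 7868. In the glutathione supply list (14 measured of 16), Ggct rose on HFD in F/F (1.26, from 382 to 1087) and Cth, which makes cysteine, fell by 1.32 on HFD in LKO (from 9045 to 5027). Gclc, the rate-limiting enzyme of glutathione synthesis, gave 5535, 4383, 9110 and 10691, with diet differences of 0.47 and 0.82. Among 6 membrane-bound glutathione transferases, Mgst3 rose on HFD in F/F (from 547 to 1835) and in LKO (1.36, from 751 to 2676), whereas Mgst1 gave 145030, 152225, 158833 and 145153 with diet differences of -0.12 and -0.54.

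Of the other phase II enzymes 18 of 20 lay below 0 between genotypes on HFD, beside 54.1% of all genes. Of the 20, 0 reached 2-fold, beside 2.36% higher and 1.91% lower over all genes. Their median was -0.33, beside -0.03 over all genes and -0.25 for the hepatocyte markers, of which 9 of 10 lay below 0. On HFD in LKO 5 of 21 fell, beside 4.07% of all genes and with a list median of -0.31 beside -0.55 for the hepatocyte markers. These were the N-acetyltransferase Nat8 (-2.14), the acyl-CoA synthetase Acsm2 (-2.13), the nicotinamide methyltransferase Nnmt (-1.88), the indolethylamine methyltransferase Inmt (-1.23) and the glycine methyltransferase Gnmt (-1.07), while 1 gene rose, the quinone reductase Nqo1 (1.04). On HFD in F/F 3 of 21 fell, beside 2.94% of all genes and with a list median of 0.06. These were Nat8 (-1.39), Nnmt (-1.07) and Acsm2, whose value in F/F was a bound. Nqo1 rose in F/F as well (1.42). Of 10 efflux transporters, Abcb1a rose on HFD in F/F (1.20, from 51.1 to 139) and in LKO (from 84.0 to 234). Abcc1 rose by at least 1.70 in LKO, from 8.92 on LKO chow, where it was not well above background, to 40.1.

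Factors known to control conjugation genes were mostly under 2-fold. Of 22 measured regulators 1 fell in each diet comparison, the liver factor Onecut1 (-1.10 in F/F and -1.17 in LKO), beside 2.94% and 4.07% of all genes. Nr1i3, which encodes the xenobiotic receptor CAR, gave 1255, 1123, 1401 and 1015 with a genotype difference of -0.63 on HFD. Target genes outside the families did not move one way. Of the 9 NRF2 targets, 8 lay above 0 and 1 below between genotypes on HFD (median 0.40), beside 54.1% of all genes below 0. For the diet, 5 of the 9 lay above 0 and 4 below in F/F (median 0.03), and 6 above and 3 below in LKO (median 0.73). Srxn1 rose on HFD by 1.01 in F/F and 1.35 in LKO. It was 1 of 2 NRF2 targets that rose in each, beside 5.21% and 8.12% of all genes. Hmox1 had diet differences of -0.62 and -0.42. The AHR target Cyp1a2 fell by 2.07 on HFD in F/F and by 1.93 in LKO. Its list of 4 measured AHR targets had diet medians of -0.69 in F/F and -0.24 in LKO, each with 1 above 0 and 3 below. Another target, Cyp1b1, rose on HFD in LKO (1.20, from a low signal of 15.0 to 47.7) and between genotypes on HFD (1.45). The CAR target Cyp2b10 gave 3998, 2737, 12656 and 2472, rose on HFD in F/F (1.42) and fell by 2.52 between genotypes on HFD. Its list of 7 CAR and PXR targets did not share this pattern. Between genotypes on HFD, 4 lay above 0 and 3 below (median 0.10). On HFD in F/F, 2 lay above 0 and 5 below (median -0.79).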

How the data were processed

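Cy3-labelled cRNA of total liver RNA from 4 conditions was hybridised to 4 arrays of the SurePrint G3 Mouse design, read in 1 channel. The authors extracted the spots with Agilent Feature Extraction 12.0.3.1 (per the labels and file headers), and the deposited intensity is each spot's background-subtracted, detrended processed signal, with no scaling between arrays. A deposited value table holds the same intensity multiplied by 1 factor per array (on chow 2.60 for F/F and 2.63 for LKO, on HFD 2.41 and 2.10, with column medians of 34.5, 33.2, 36.1 and 36.0). It is linear and not centred, and how the factors were made is not given in the sources used here. It served as an alternative.

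Control spots and outlier spots were left out, spots of a probe were averaged, and log2 values were taken minus each array's 75th percentile. Of 56605 probes, 33767 (59.7%) were assigned to 23462 genes through transcript accessions and the RefSeq table. The brightest probe stood for a gene. Genes not well above background on either array of a comparison had no value, and a gene below it on 1 array had a bound. Single arrays allow no test, and the number of arrays limits the precision. Between 53.0% and 57.0% of spots were well above background and 0 were saturated. Probe sequences were not used here. A planned promoter motif and a measured regulator are not reported here.

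Members were taken by gene symbol. Which members to name, and the pathway lists and marker lists (19 lists), were chosen with earlier results of these arrays known. Members at least 2-fold different in a comparison, and the best known of each family, were named with every signal. Alternatives were normexp background correction (limma 3.58.1, offset 50, on median signals) with R 4.3.3, quantile normalization, the percentile over other probe sets, the deposited table, the background filter, the probe rule, thresholds of 1.5-fold and 4-fold and, chosen after seeing the data, centring on 10 hepatocyte markers. The steps ran in Python 3.11.15 with pandas 2.3.3, numpy 2.4.6 and matplotlib 3.10.9, and were tested on simulated data.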

Additional observations from a re-analysis of the deposited data

Results flagged for a closer look

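Sult1b1 and Sult2a7 had differences of opposite sign in the 2 settings of a comparison. For Sult1b1 the difference between LKO and F/F was 0.14 on chow and -1.02 on HFD. The value on chow is under the software error of 0.20 for a difference, and another probe gave -0.00 there, so no opposite movement is shown for this gene. For Sult2a7 the difference between HFD and chow was 0.55 in F/F and -1.41 in LKO. Each value rests on 1 array per condition, and the difference between the settings was not tested.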

How the results depend on the processing

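No called value changed sign under the alternatives. Of the counts of members at least 2-fold different, normexp background correction gave 0 higher in LKO on chow (1 before), beside 20 of 14866 genes. Quantile normalization and the deposited value table each gave 2 higher for HFD against chow in F/F (1 before). Over all genes these counts were 886 of 15373 and 1075 of 15376. With no background filter, 1 was lower in LKO on chow and 6 on HFD (4 before), 2 were higher and 3 lower for the diet in F/F, and 1 was higher and 8 lower in LKO. In the same order, the counts over all 23462 genes were 807, 889, 1366, 1351, 1912 and 1508. Normexp background correction, quantile normalization and the percentile over probes that passed the background flag on every array each gave 3 lower in LKO on HFD. Over all genes these counts were 86 of 15320, 301 of 15484 and 275 of 15562. At 1.5-fold, 2 were higher and 1 lower on chow and 9 were lower in LKO on HFD, with 3 higher and 9 lower for the diet in F/F and 2 higher and 20 lower in LKO. Over all genes these counts were 527 and 519 of 14981, 944 of 15528, 2033 and 1474 of 15358, and 2347 and 1789 of 15242. At 4-fold, 0 members were left in any comparison or direction, beside 33 to 209 of all genes. Centred on the hepatocyte markers, chosen after seeing the data, 2 were lower in LKO on HFD, 3 were higher and 1 lower for the diet in F/F, and 2 were higher and 3 lower in LKO. Over all genes these counts were 175 of 15528, 1452 and 268 of 15358, and 2936 and 196 of 15242. That centring, the deposited table and the percentile over other probes shift every member of a comparison by the same amount. Their counts follow from that shift. Fewer members called at 4-fold and more at 1.5-fold follow from the threshold itself, and for the other settings the cause was not tested.

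That centring moved the medians of all genes to 0.22 between genotypes on HFD and to 0.25 and 0.48 for the diet in F/F and in LKO, and the deposited table moved the diet medians to 0.11 and 0.07. Of 184 values of single members and family medians, 63 moved by more than the technical SD of a difference after quantile normalization. After normexp background correction 45 did. The counts were 138 under the hepatocyte marker centring and 92 in the deposited table. Both of these settings shift every value of a comparison by the same amount. Their counts therefore add up whole comparisons and do not measure how stable a single member was. No paired analysis was possible because each condition had 1 array. Signal near background limited Ugt1a6a and the 13 members below it.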

Other observations

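Genes that differ between the sexes in mouse liver were also measured, as several conjugation enzymes do. Of 12 male-predominant genes, 7 were at least 2-fold lower on HFD in F/F and 6 in LKO, with medians of -1.46 and -1.09, beside 2.94% and 4.07% of all genes and hepatocyte marker medians of -0.27 and -0.55. Hsd3b5, a male-predominant steroid dehydrogenase, gave 8835 in F/F and 3997 in LKO on chow, against 281 and 44.5 on HFD. Slco1a1, an organic anion uptake transporter, gave 2886, 2603, 607 and 419 in the same order. Of the female-predominant genes, 8 of 11 lay below 0 on HFD in F/F (median -0.64, with 3 higher and 3 lower by 2-fold) and 7 of 10 in LKO (median -0.88, with 1 higher and 4 lower). Over all genes 52.2% and 56.5% lay below 0, with 5.21% and 8.12% higher and 2.94% and 4.07% lower by 2-fold. The hepatocyte marker medians are those given above. Among the female-predominant genes, and against their median on HFD in F/F, Cyp2b9 gave 1855, 1184, 13483 and 2478 in the order stated, highest on F/F HFD, with a difference of -2.61 between LKO and F/F on HFD. These values have no replicate check.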
